A study of Homo sapiens with 8 samples.

Results

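CD53 and 6 other tetraspanins of leukocytes, CD9, CD37, CD63, CD81, CD82 and CD151, were followed in dexamethasone-treated T-cell leukaemia cells. All probe sets whose only gene symbol in the platform annotation was 1 of these 7 genes were taken, which gave 13 of the 54613 probe sets left after control probe sets were set aside. CD53 and CD9 had 3 each, CD37 and CD82 had 2 each, and CD63, CD81 and CD151 had 1 each. The set was selected on the change of CD53 over 0, 2 and 10 h in these data, so the values of CD53 are a description and carry no test. The 6 relatives were listed as members of its family with those results known.

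Tetraspanins are small proteins that cross the membrane several times and hold integrins, immunoglobulin-family receptors and signalling enzymes together in membrane domains. CD53 and CD37 are largely restricted to blood cells, CD81 and CD82 are found on T cells and on many other cells, CD63 marks late endosomes, lysosomes and secreted vesicles, and CD9 and CD151 are prominent on platelets and epithelial cells. In lymphocytes CD53 is known to stabilise L-selectin and to support signalling by the interleukin 7 receptor.

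CCRF-CEM-C7-14 is a cloned, glucocorticoid-sensitive human T-cell acute lymphoblastic leukaemia line, so all values come from 1 clone. Dexamethasone is a synthetic agonist of the glucocorticoid receptor, a transcription factor. There were 3 arrays of untreated cells (0 h), 3 of cells after 2 h and 2 of cells after 10 h in 1 µM dexamethasone, all in medium with charcoal-stripped serum. Time-matched vehicle controls were not analysed here, so hormone and time in that medium cannot be told apart. The arrays of a time are described as biological replicates, with no word on separate cultures, so the p-values measure only the spread between these samples, which may be technical.

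Values were log2 expression per probe set, made with RMA. Array medians ran from 4.68 to 5.01. The 3 arrays with the lowest medians, 0 h replicate 2, 2 h replicate 3 and 10 h replicate 1, stood apart from the other 5, and each time held 1 of them. Among untreated arrays, 9 of the 13 probe sets were lowest on the one with the lowest median, against 68.3% of all probe sets. The count was 11 at 2 h (66.2% of all) and 9 at 10 h (72.4% of all). Known targets of the hormone were higher at 10 h than at 0 h. They were all 3 probe sets of FKBP5, a receptor co-chaperone, and 2 of 3 of TSC22D3, the leucine zipper protein GILZ. The mean log2 level of these 2 genes, each on its brightest probe set, was already higher at 2 h. It ran from 7.75 to 8.28 at 0 h, 9.59 to 9.87 at 2 h and 11.11 to 11.37 at 10 h. T-lineage markers were present. The level of 9 of 10 exceeded 4.73, the highest value of any Bacillus negative control, with CD3D at a mean of 13.01 and LCK at 12.38, while CD2 lay at 4.72. Of the other markers fixed for other cell types, 4 of 6 B-lineage, 2 of 6 myeloid, 2 of 5 natural killer, 4 of 5 erythroid and platelet and 3 of 6 epithelial and stromal genes exceeded it, among them CD79A at 8.78, EPCAM at 8.56 and COL1A1 at 7.07. Changes were tested with limma on all 54613 probe sets and a probe set was called where the p adjusted by Benjamini-Hochberg was under 0.05. Values in bulk RNA cannot tell fewer cells of a kind from less RNA per cell.

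Against the negative controls, 8 of the 13 probe sets, from 6 genes, had a mean above 4.73 and exceeded it on all 8 arrays. All 3 probe sets of CD9 had a mean at or below it. The remaining probe sets below it were CD53 237606_at and CD37 238321_at. Probe sets differ in how they read a given amount of RNA, so levels were compared with this limit and with themselves over time, and no gene was ranked above another.

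The sequence before the start of CD53 is shown because the hormone acts through a DNA-binding receptor. The RefSeq promoter table held 15 windows of 300 bases (250 before and 50 after an annotated start) for 4 of the 7 genes: 2 for CD53, 4 for CD9, 8 for CD63 and 1 for CD82. The 250 bases before the upstream start of CD53 were as follows, in lower case because they held none of the motifs searched.
CD53, GRCh38.p14 chr1:110870960-110871209.0, plus strand: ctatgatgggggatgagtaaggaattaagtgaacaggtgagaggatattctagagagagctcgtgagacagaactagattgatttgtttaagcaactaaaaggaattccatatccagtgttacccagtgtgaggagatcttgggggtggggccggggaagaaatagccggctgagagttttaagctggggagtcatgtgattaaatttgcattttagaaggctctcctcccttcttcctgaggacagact
Both strands were searched for AGAACA, the hexamer that a receptor monomer contacts, and for the full glucocorticoid response element, which holds this hexamer and its reverse complement with a gap of 3 bases. The hexamer lies in 14.8% of all 35116 promoter windows and the full element in 0.00285%. None of the 15 windows held any of them, which says only that these letters are not in these windows.

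CD53, the leukocyte-restricted member, had risen by 2.67-fold after 10 h on its brightest probe set. On 203416_at the untreated arrays read 9.63, 9.35 and 9.58, the 2 h arrays 9.77, 9.73 and 9.77 and the 10 h arrays 11.02 and 10.85. Both 10 h arrays lay more than 1 log2 unit above every earlier array, and the 2 h arrays lay just above the untreated ones with no overlap. The means were 9.52 ± 0.15 (SD, n = 3), 9.76 ± 0.03 (SD, n = 3) and 10.94 ± 0.12 (SD, n = 2). The log2 fold change was 0.23 ± 0.17 (SE) at 2 h, with a 95% interval of −0.12 to 0.59, and 1.42 ± 0.19 (SE) at 10 h, with an interval of 1.02 to 1.82, or 2.02-fold to 3.53-fold. Between 2 h and 10 h it was 1.18 ± 0.19 (SE), or 2.27-fold. The value at 10 h was the 103rd highest of the 54613 log2 fold changes.

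The other probe sets of CD53 were higher at 10 h as well but did not pass the threshold. Probe set 242946_at read 6.45, 5.55 and 6.42 at 0 h, 6.59, 6.36 and 6.15 at 2 h and 6.85 and 7.43 at 10 h. The 10 h arrays lay above all earlier ones, and the 0 h and 2 h arrays overlapped. Its log2 fold change was 1.00 ± 0.27 (SE; interval 0.41 to 1.59) at 10 h and 0.23 ± 0.25 (SE) at 2 h, the latter −0.07 without 0 h replicate 2. At 10 h this probe set was called in 1 of 17 alternatives, with a block for the 3 low-median arrays, at 1.10. Its 10 h value over the alternatives ran from 0.70, without 0 h replicate 2, to 1.29, without 10 h replicate 1. Probe set 237606_at, which stayed below the highest negative control on all 8 arrays, read 4.18, 3.78 and 4.07, then 4.46, 4.09 and 4.11, then 4.24 and 4.66. Here the 10 h arrays lay above the untreated ones and overlapped with the 2 h arrays, and the log2 fold change at 10 h was 0.44 ± 0.22 (SE; interval −0.02 to 0.90), with 0.66 without 10 h replicate 1 and 0.23 without 10 h replicate 2. The 3 probe sets thus shared their sign, while the estimate was smallest on the dimmest.

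CD53 was chosen for its change, so its calls here only show how the fit depends on the arrays. The 3 low-median arrays and the other 5 each held a single 10 h array. CD53 203416_at had log2 fold changes of 1.67 and 1.25 within these sets. It was bound to be higher at 10 h in both, since each 10 h array exceeded every untreated one. It lost its call at 10 h without 10 h replicate 1, at 1.33, and without the 3 arrays with the lowest medians, at 1.25, and was called in the other 16 of 18 alternatives. Against 2 h it was called in 11 of 18, and was lost without any 1 of the 2 h or 10 h arrays, with a replicate block and without the 3 arrays, at log2 fold changes of 1.10 to 1.27 over all 18.

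**Figure D1:**
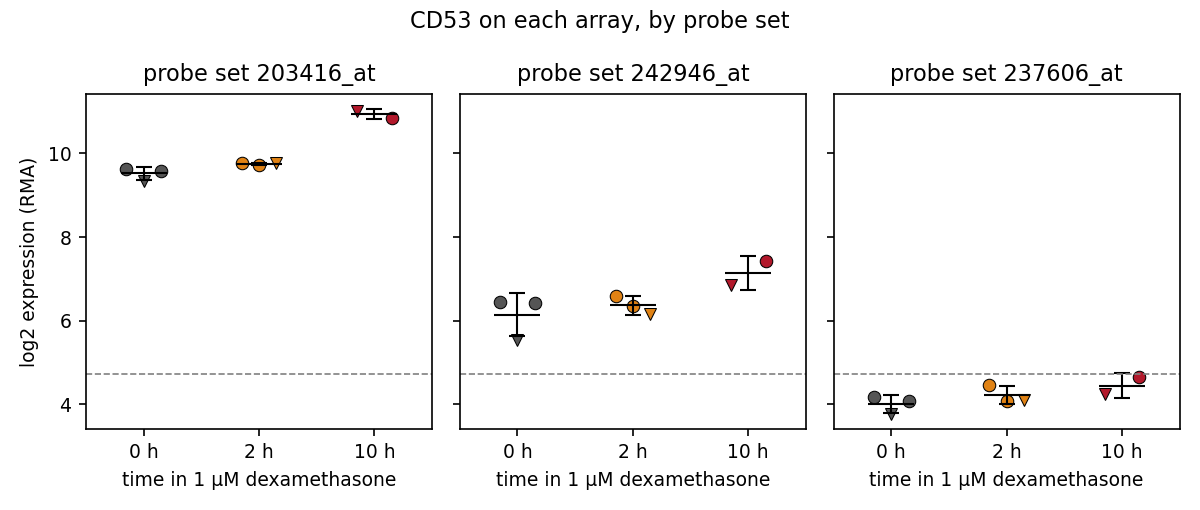
Log2 expression (RMA) of the 3 CD53 probe sets by array and time in dexamethasone; triangles are the 3 arrays with the lowest medians, circles the other 5, black bars the mean ± SD, and the dashed line the highest negative control value, 4.73. On 203416_at the 10 h arrays read 11.02 and 10.85 against 9.35 to 9.63 at 0 h, and 237606_at lies below the dashed line throughout.

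Of the 13 member probe sets, 1 was called at 10 h against 0 h, where 0.251% of all probe sets were, and 1 at 10 h against 2 h, where 0.108% were. Both calls are 203416_at, whose change led to the choice of the set. At 2 h none was called in limma, and none had an unadjusted p below 0.05 either, where 0.00916% of all probe sets were called and 1.1% had such a p. At 10 h, 4 of the 13 had one against 0 h and 3 against 2 h, where 2.68% and 2.53% of all probe sets did. In each comparison 2 of these belong to CD53, and without it the counts were 2 of 10 and 1 of 10. Every probe set of the 6 relatives had an adjusted p of 1 in each of the 3 comparisons. Their data are therefore given as values and intervals.

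CD37, the other blood-cell-restricted member, which restrains lymphocyte activation, had the highest log2 fold change against 0 h among the 6 relatives, at 2 h and at 10 h. On 204192_at the untreated arrays read 9.03, 8.90 and 8.34, the 2 h arrays 9.15, 9.30 and 8.98 and the 10 h arrays 9.29 and 9.35. The 10 h arrays lay above all untreated arrays, while the 2 h arrays overlapped with both. The log2 fold change was 0.39 ± 0.20 (SE; interval −0.04 to 0.82) at 2 h and 0.56 ± 0.22 (SE; interval 0.09 to 1.04) at 10 h, or 1.48-fold. The untreated mean of 8.76 ± 0.37 (SD, n = 3) was drawn down by replicate 3, and without it the 10 h value was 0.35. The second probe set, 238321_at, averaged 4.49, no brighter than negative controls, and −0.23 ± 0.23 (SE) at 10 h.

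CD82, also called KAI1 and known as a suppressor of metastasis that is found on activated T cells, had negative values at 10 h on both probe sets. On 228910_at the untreated arrays read 7.29, 6.84 and 7.23, the 2 h arrays 7.30, 7.31 and 7.0 and the 10 h arrays 6.43 and 6.64. Both 10 h arrays were below every earlier array, and the 0 h and 2 h arrays overlapped. The log2 fold change was −0.58 ± 0.21 (SE; interval −1.03 to −0.14) against 0 h and −0.66 ± 0.21 (SE; interval −1.11 to −0.22) against 2 h, both at an adjusted p of 1. The brighter probe set 203904_x_at, whose suffix marks probes that can match other transcripts, read 8.87, 8.45 and 8.40, then 8.54, 8.85 and 8.33, then 8.38 and 8.31. The 10 h arrays lay below the untreated ones by a narrow margin, and the log2 fold change was −0.23 ± 0.22 (SE; interval −0.69 to 0.23). At 2 h the CD82 values were 0.08 ± 0.19 and 0.00 ± 0.19 (SE).

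CD151, a close partner of laminin-binding integrins, read 6.36, 6.40 and 6.16 at 0 h, 6.30, 6.23 and 6.22 at 2 h and 6.11 and 5.81 at 10 h on its only probe set, 204306_s_at. The 10 h arrays were below all earlier arrays, the nearer of them by little. The log2 fold change was −0.35 ± 0.19 (SE; interval −0.75 to 0.06) at 10 h and −0.05 ± 0.17 (SE) at 2 h. The 10 h value ran from −0.49 to −0.20 over the 18 alternatives. Leaving arrays out could not change its sign, because the 10 h and 0 h arrays did not overlap.

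CD81, which associates with CD4 and CD8 on T cells, varied within times more than between them. Its probe set 200675_at read 11.66, 11.22 and 11.10 at 0 h, 11.35, 11.64 and 11.23 at 2 h and 11.34 and 11.37 at 10 h, so that the 10 h arrays fell inside the untreated range. The log2 fold change at 10 h was 0.03 ± 0.22 (SE; interval −0.43 to 0.49). CD63, the endosomal member, read 9.54, 9.36 and 9.78 on 200663_at, then 9.77, 9.70 and 9.44, then 9.40 and 9.93. Its log2 fold change was 0.10 ± 0.22 (SE; interval −0.37 to 0.57), and the 10 h arrays overlapped with both earlier times. The value was 0.37 without 10 h replicate 1 and −0.16 without 10 h replicate 2. These intervals leave room for a fall as well as a rise, from −0.43 to 0.49 in CD81 and from −0.37 to 0.57 in CD63.

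CD9, known for its roles in platelets and in the fusion of sperm and egg, could not be followed above background. Its brightest probe set, 233322_at, ran from 4.06 to 5.17 over the 8 arrays and exceeded the highest negative control on 4 of them. The lowest reading at 0 h, 4.22, and at 2 h, 4.06, came from the arrays with the lowest medians. The means of the other probe sets were 3.47 and 3.25. The log2 fold changes at 10 h were −0.02, 0.02 and −0.02, each with an SE between 0.22 and 0.28.

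**Figure D2:**
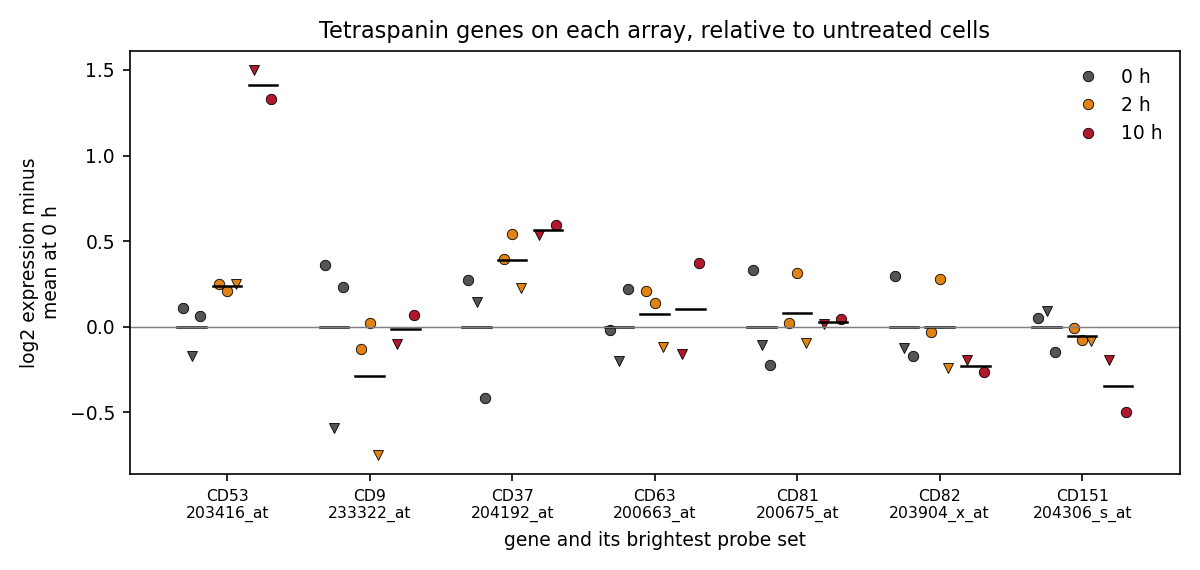
Log2 expression minus the mean at 0 h (vertical axis) for the brightest probe set of each of the 7 genes, by array and time; triangles are the 3 arrays with the lowest medians and black lines the mean of each time. The 10 h arrays of CD53 stand clear of all others, those of CD37 lie above and those of CD82 and CD151 below the untreated arrays, and those of CD63 and CD81 overlap with them.

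**Figure D3:**
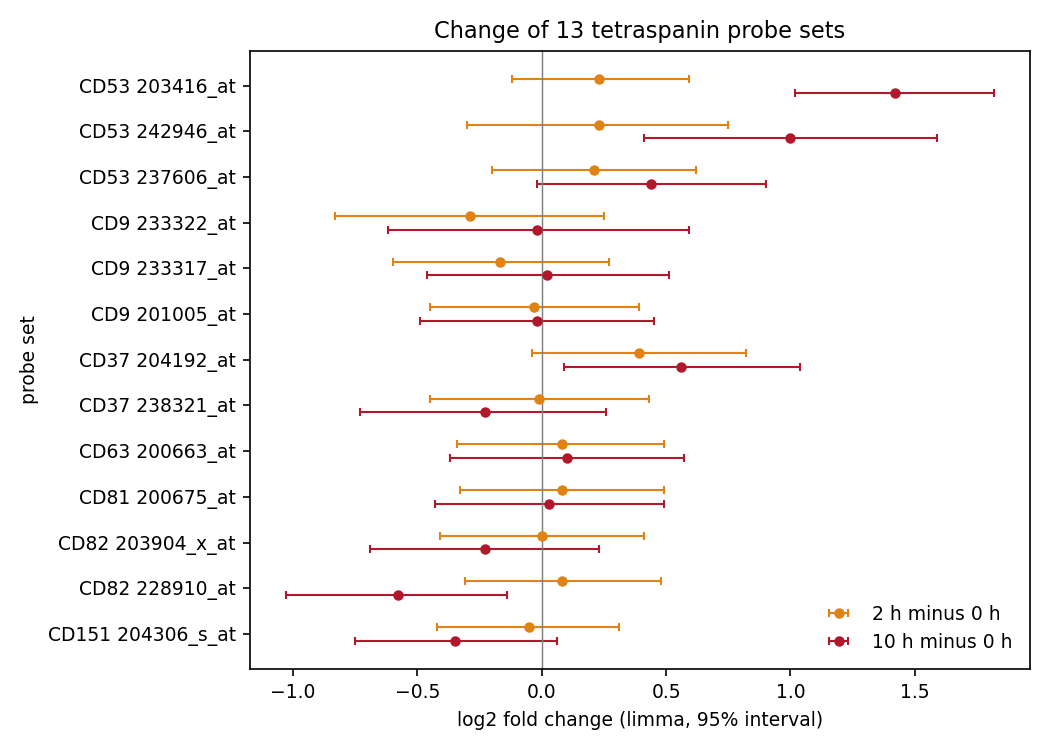
Log2 fold changes (horizontal axis) at 2 h and 10 h against 0 h with 95% intervals from limma for the 13 probe sets. At 10 h the intervals of CD53 203416_at (1.02 to 1.82), CD53 242946_at (0.41 to 1.59), CD37 204192_at (0.09 to 1.04) and CD82 228910_at (−1.03 to −0.14) do not include 0, and at 2 h all intervals do.

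Counting arrays rather than calls, 7 of the 13 probe sets (53.8%) did not overlap between 0 h and 10 h, against 12.1% of all probe sets. These were the 3 of CD53 and CD37 204192_at, higher at 10 h, and both of CD82 and that of CD151, lower. Without CD53 the count was 4 of 10. Probe sets of a gene share their target, so these are not independent. The same count was 1 of 13 between 0 h and 2 h, against 4.13% of all probe sets, and 4 of 13 between 2 h and 10 h, against 13.4%. Without CD53 these were 0 of 10 and 2 of 10. The median log2 fold change of the 13 was 0.075 at 2 h and 0.025 at 10 h, where that of all probe sets was 0.012 and −0.027. At 10 h, 7 of the 13 had positive and 6 negative values.

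The rest of the family gave no call. Of the 26 other human tetraspanins, 25 were measured with 47 probe sets, and 18 genes exceeded the highest negative control. In limma 0 of the 47 were called in any comparison. At an unadjusted p below 0.05 there were 0 at 2 h, 4 at 10 h against 0 h and 1 at 10 h against 2 h. The shares of all probe sets were 1.1%, 2.68% and 2.53%. Arrays did not overlap for 1, 8 and 8 of the 47 in the same order, against 4.13%, 12.1% and 13.4% of all probe sets. The median log2 fold change of the 47 at 10 h was 0.001, with values from −0.30 to 0.84. The smallest p-values belonged to TSPAN31 and TSPAN5. TSPAN31, which lies next to CDK4 and is often co-amplified with it in sarcomas, went from 6.37 ± 0.53 (SD, n = 3) to 7.21 ± 0.31 (SD, n = 2) on 203227_s_at, 0.84 ± 0.30 higher (SE; adjusted p = 1). TSPAN5, which escorts the sheddase ADAM10 to the cell surface, had 0.58 ± 0.22, 0.55 ± 0.21 and 0.49 ± 0.20 (SE) on its 3 probe sets, each with an adjusted p of 1 and with no overlap between 0 h and 10 h. The highest of these 47 values lay below the 1.42 of CD53 203416_at and the 1.00 of 242946_at.

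**Figure D4:**
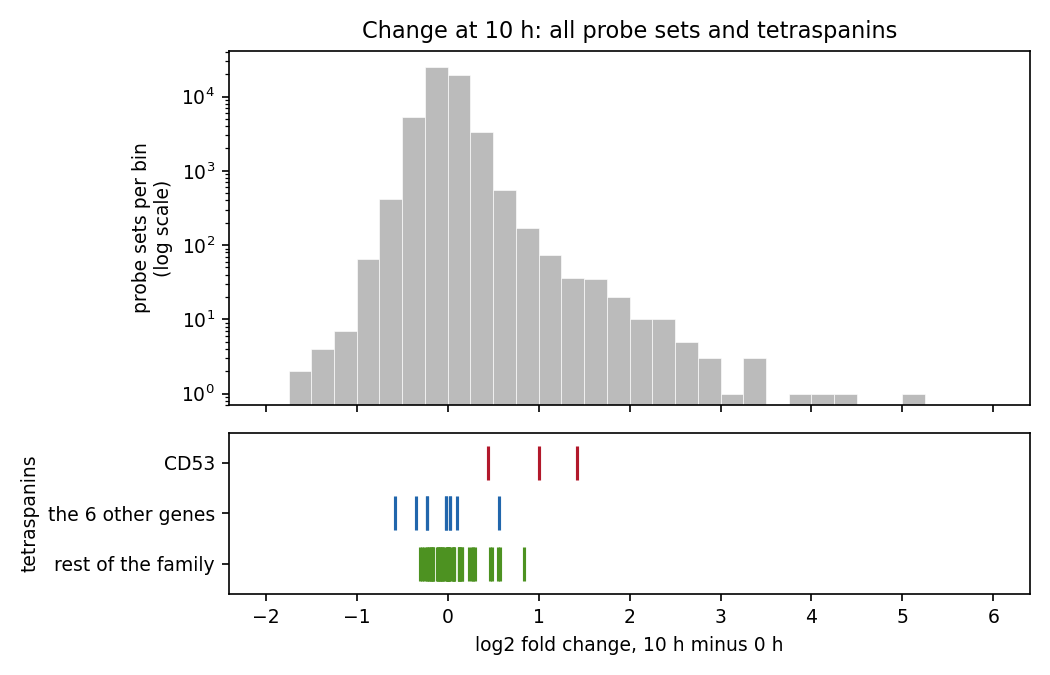
Upper panel, number of probe sets (log scale) in bins of 0.25 of the log2 fold change at 10 h against 0 h, over all 54613 probe sets; lower panel, a tick for each probe set of CD53, of the 6 other genes and of the rest of the tetraspanin family on the same horizontal axis. The CD53 ticks lie at 0.44, 1.00 and 1.42, and the 47 ticks of the rest of the family between −0.30 and 0.84.

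Among proteins that tetraspanins bind on lymphocytes, 33 of 35 listed genes were measured with 106 probe sets. The list was drawn up with earlier results of these data known, so its counts are a description. At 10 h against 0 h, 4 probe sets of 2 genes were called, all higher, where 0.251% of all probe sets were called. The median log2 fold change of the 106 was −0.037. ITGA6, the integrin alpha 6 chain that pairs with CD151, rose on both of its probe sets. On 215177_s_at it went from 9.24 ± 0.27 (SD, n = 3) after 2 h to 9.77 ± 0.40 (SD, n = 3) and after 10 h to 11.32 ± 0.03 (SD, n = 2), which is 2.07 ± 0.24 (SE; limma adjusted p = 0.000548) above 0 h. On 201656_at the change was 1.62 ± 0.24 (SE; limma adjusted p = 0.00437). IL7R, the interleukin 7 receptor chain, rose by 3.43 ± 0.20 (SE; limma adjusted p = 5.76e-07) on 226218_at and by 2.83 ± 0.25 (SE; limma adjusted p = 5.10e-05) on 205798_at. All 4 probe sets were also called at 10 h against 2 h, where 0.108% of all probe sets were, and none of the 106 at 2 h. In limma 6 of the 106 had an unadjusted p below 0.05 at 2 h. At 10 h 13 had one against 0 h and 13 against 2 h. The shares of all probe sets were 1.1%, 2.68% and 2.53%. The probe sets of the other 31 genes were not called.

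For the endosome and vesicle genes around CD63, 20 of 21 were measured with 48 probe sets. None was called in limma in any comparison, with 1 at an unadjusted p below 0.05 in each. The shares of all probe sets were 1.1% at 2 h, 2.68% at 10 h against 0 h and 2.53% against 2 h. The median of the 48 at 10 h was −0.030. RAB27A, a GTPase that docks secretory vesicles, had −0.59 ± 0.22 (SE; adjusted p = 1) at 10 h on 209515_s_at, and −0.10 to −0.47 on its other 4 probe sets. RAB7A, a GTPase of late endosomes, had −0.48 ± 0.20 (SE; adjusted p = 1) at 2 h on 217267_s_at, a probe set that averaged 2.34, no brighter than negative controls.

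Markers of cell types were set beside these values. None of the marker probe sets was called in limma in any comparison. Means above the highest negative control were found for 14 of 17 T-lineage, 5 of 16 B-lineage and 2 of 10 myeloid probe sets. For natural killer, erythroid and platelet, and epithelial and stromal probe sets it was 4 of 16, 7 of 11 and 4 of 14. No myeloid or erythroid and platelet probe set had an unadjusted limma p below 0.05 in any comparison. The mean log2 level of the T-lineage list ran from 9.02 to 9.34 at 0 h, 9.13 to 9.34 at 2 h and was 9.24 on both 10 h arrays. That of the B-lineage list ran from 5.06 to 5.48, 5.01 to 5.43 and 5.30 to 5.32, and that of the myeloid list from 3.83 to 4.16, 3.69 to 4.18 and 3.82 to 4.0. The natural killer list lay at 4.11 to 4.43, 3.99 to 4.40 and 4.32 to 4.45, the erythroid and platelet list at 4.79 to 5.08, 4.85 to 5.19 and 4.97 to 4.99, and the epithelial and stromal list at 5.35 to 5.44, 5.20 to 5.47 and 5.13 to 5.33. Of these 6 lists, only the last had both 10 h arrays outside the untreated range, below it, and its part in the values of CD53 was not tested. The members of each list with the smallest p, on the probe set that gave it, were, at 10 h against 0 h, CD7 (0.79 ± 0.29, SE) and CD3E (0.53 ± 0.21) of the T lineage, CD79A (0.69 ± 0.22) and CD22 (−0.44 ± 0.24) of the B lineage, NCR1 (−0.42 ± 0.24) of natural killer cells, and PDGFRB (−0.46 ± 0.21) of stroma. For the others the smallest p fell in other comparisons. KLRD1 had 0.55 ± 0.23 and COL1A2 0.43 ± 0.19 at 10 h against 2 h, MPO −0.21 ± 0.25, ITGA2B −0.30 ± 0.17 and PPBP 0.26 ± 0.19 at 2 h, and LYZ −0.16 ± 0.21 at 10 h against 2 h.

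The genes whose course over the 8 arrays was closest to that of CD53 203416_at were found by the root mean square difference of log2 values, each centred on its own mean at 0 h, among 13067 other genes above the negative controls. They were RADX (0.135), PTPRM (0.142), TUBA4A (0.176), RIPOR2 (0.177) and ANK2 (0.204 log2 units). Their changes resemble those of CD53 because they were chosen for it, so the values are a description. RADX, which binds single-stranded DNA at replication forks, had log2 fold changes of 0.13 at 2 h and 1.57 at 10 h. PTPRM, a receptor tyrosine phosphatase, had 0.16 and 1.59. TUBA4A, an alpha tubulin, had 0.47 and 1.49, RIPOR2 0.29 and 1.66, and ANK2, a membrane-skeleton adaptor, 0.23 and 1.42. Of the relatives of CD53, CD37 was the nearest at 0.497, the 254th of those genes, and the values of the others were 0.698 for CD63, 0.721 for CD81, 0.838 for CD9, 0.854 for CD82 and 0.907 for CD151.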

How the data were processed

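Total RNA of 8 samples was hybridised to single-colour arrays of 54675 probe sets. The deposited values are log2 expression, made with RMA per the submitters' processing notes; its version, and whether the 8 arrays were processed together, are not given in the sources used here. The method adjusts for background, normalizes between arrays and summarises probes, so small differences depend on all arrays processed with them.

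Groups came from the stated times. The platform annotation named them: 41091 had 1 symbol, 1801 several and 11721 none, and 62 control probe sets were left out; 0 probe sets with several symbols named a member. The Entrez identifiers of all 13 member probe sets led to the same symbols in the RefSeq gene table. The 54613 remaining probe sets of all 8 arrays entered a fit with limma 3.58.1 (R 4.3.3; a mean per time, contrasts, eBayes, 5 residual degrees of freedom), with no filter on dim probe sets. Adjusted p-values are two-sided, Benjamini-Hochberg over all 54613. Negative controls were the 27 probe sets for Bacillus transcripts (1.52 to 4.73). Lists and alternatives covered the family, partners, vesicle genes and cell type markers. The members and lists were chosen with earlier results of these data known.

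Genes named were the members, called genes of each list or, with fewer than 2, the 2 with the smallest p, and the 5 genes most like CD53; the markers CD3D, LCK, CD2, EPCAM and COL1A1 were named after their values were seen. The deviations of same-numbered arrays from the mean of their time correlated between −0.28 and 0.28. Those of the 3 low-median arrays correlated at 0.14 to 0.29. With 2 to 3 arrays a time these deviations depend on one another, so they cannot settle whether same-numbered arrays pair. On simulated data for 10 h against 0 h over 54613 probe sets, limma recovered 21% of changes of 1 log2 unit and 86% of changes of 2. It made 7 false calls. The simulated noise was independent between values and lacked the shared shift of the 3 low-median arrays, so these shares may not hold for the real arrays.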

Additional observations from a re-analysis of the deposited data

Results flagged for a closer look

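The difference of CD53 203416_at from untreated cells was not the same at both times: that at 10 h exceeded that at 2 h by 1.18 log2 units, a difference that the 10 h against 2 h contrast of limma called. CD53 was put forward because of its change, so this describes the gene and does not test it. Both 10 h arrays lay above all 3 of the 2 h arrays, as those of 13.4% of all probe sets did without overlap, in either direction.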

How the results depend on the processing

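Over the 18 alternatives CD53 203416_at ran from 0.15 to 0.29 at 2 h, 1.25 to 1.5 at 10 h against 0 h and 1.10 to 1.27 against 2 h. The leave-one-out ranges were 0.15 to 0.29, 1.33 to 1.5 and 1.10 to 1.27. Dropping arrays could not reverse a sign, since each array of a later time read higher than every earlier one. Trended robust variances, 1 probe set per gene and a filter on dim probe sets left the estimates as they were. These alternatives thus show the size of the change in CD53 203416_at and do not test its sign. Among the 3 arrays with the lowest medians, a single array at each time, the log2 fold change was 0.41 at 2 h and 1.67 at 10 h. Among the other 5 it was 1.25 at 10 h. That is also the value without the 3 arrays, as both use the same arrays. The number of probe sets called at 2 h was 5, against 10 with trended robust variances, 14 with array weights, 1 without the 3 arrays and 4 to 5 leaving out 1 array. At 10 h against 0 h it was 137, against 70 with 1 probe set per gene, 215 with a block for the 3 arrays, 34 without them and 70 to 147 leaving out 1 array. At 10 h against 2 h it was 59, against 33, 92 and 1 in the same order, 92 with trended robust variances and 14 to 70 leaving out 1 array. With a replicate block 6, 108 and 49 were called. Member probe sets called at 10 h against 0 h numbered 1, against 2 with the block for the 3 arrays (242946_at was added), 0 without those arrays and 0 to 1 leaving out 1 array. Against 2 h they numbered 1, against 0 with a replicate block, 0 without the 3 arrays and 0 to 1 leaving out 1 array. No probe set of the 6 relatives was called in any alternative. Over these, at 10 h against 0 h, CD37 204192_at ran from 0.35 to 0.70, CD82 228910_at from −0.72 to −0.48 and CD82 203904_x_at from −0.42 to −0.08. Where only 1 array of 10 h remained, it was assumed to vary like the other groups. The cause of the shifts was not tested, and 2 to 3 arrays a time limit every value.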
